A study of Mus musculus with 12 samples.

Results

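Ribosome footprints were set against RNA in the lymphoma libraries labelled Eμ-Myc/+, 6 of the 12 libraries of the study. These were 3 Ribo-seq and 3 RNA-seq libraries, chosen by that label alone, which 1 of the Ribo-seq libraries went against, and the 6 libraries from Eμ-Myc/+ Prps2null lymphomas were not used. Of 20561 transcripts in the deposited count table, 7713 had enough counts in both assays to be tested. The study describes 1 isoform per gene, but among the 2117 tested transcripts with a gene name 15 repeated the name of another. The question was which transcripts carried many and which carried few footprints for their RNA in untreated lymphomas.

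Eμ-Myc/+ mice carry a Myc transgene under the immunoglobulin heavy chain enhancer, which drives it in the B lineage, and develop B cell lymphomas. All 6 libraries are taken here as untreated allografts, after the host age and injected cell number annotated for these samples. The study's sequencing methods instead name lymphoma cells harvested from tumor-bearing Eμ-Myc/+ mice. For the allografts, cryopreserved lymphoma cells had been given by tail vein to male C57BL/6 hosts 8 weeks of age. B cells were then purified from the lymph nodes with a selection kit. Prps2, which encodes a phosphoribosyl pyrophosphate synthetase of nucleotide synthesis, was not targeted in this genotype. The labels call the 3 libraries of an assay biological replicates without saying whether they came from separate primary tumors, so p-values measure the spread between these libraries.

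In Ribo-seq, a nuclease digests mRNA that no ribosome covers, and the fragments left, called ribosome-protected fragments (RPF) or footprints, are sequenced. Their number on a coding sequence over the number of RNA reads on it is the translation efficiency (TE). An mRNA with a high TE holds more ribosomes per copy, whether because initiation is frequent or because elongation is slow. mRNAs for ribosomal proteins and elongation factors begin with a cytosine and a run of pyrimidines, the terminal oligopyrimidine (TOP) motif, through which the mTORC1 kinase controls their translation as a group. Upstream start codons, long leaders and stable structure in the 5′ UTR are known to lower initiation at the main start codon.

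The 5′ ends of transcripts at both extremes are printed here because the TOP motif is defined on them. They are the first 24 bases of the annotated 5′ UTR, 5′ to 3′ on the mRNA strand, from the sequences supplied with the study. Capitals mark a TOP start, taken as a C at the first base followed by 4 to 15 further C or T. Of the 1436 transcripts tested that had such a sequence, 3.41% had this start. The first 5 below had a TOP start and few footprints for their RNA.
Rpl4: CTTTTCCTgtgggagcagccgggt
Rpl32: CTTCCTTCTTCCTCggcgctgcct
Rps21: CCCTCCTgcccaatagtgctgcgg
Rack1: CTTTTTCTCCacagggtcgtggtg
Pabpc1: CCCCTTCTCCCCggcggttagtgc
The next 2 had a TOP start by the same rule and many footprints for their RNA.
Snrpb2: CTCTTCCggcgcggggaagctctt
Mrpl4: CTTCCCggcacccggctctggctc
The last 4, also with many footprints, had no TOP start.
Lamp2: ggtcttatgactccagctgaagcg
Fmc1: gaacacctcgcccgaggcagtgag
Prdx4: cgcgcccttggtcgcgcggtctcc
Psmb5: tcggaggcagttcctgttgccctt

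RNA-seq libraries held 4677391 to 6648829 counts, and RPF libraries held 1019881, 1019139 and 2793163. A count of 0 therefore allows up to 3 counts, or 2.94 CPM (the count scaled by the library total), in the shallowest footprint library, which covers counting error only. The library labelled RPF replicate 3 went against its label. Its Prps2 stood at 8.18 CPM, beside 162.5 and 129.1 in RPF replicates 1 and 2, while Prps2 RNA was 60.3, 60.9 and 56.5 CPM. That library also stood apart across transcripts. Spearman's rho across the 7713 transcripts was 0.978 between RPF replicates 1 and 2 and 0.889 and 0.892 between each of them and the library labelled RPF replicate 3, beside 0.980 to 0.985 among RNA libraries. Below, "without that library" means without the one labelled RPF replicate 3. Of the B cell markers, the 4 with a paired name (Cd79a, Ms4a1, Cd74 and Vpreb3) were detected in every library. They summed to 1908 to 2749 CPM of RNA, beside 17.1 to 36.2 for 2 myeloid markers and 50.5 to 113.4 for 4 stromal ones. Cd74 held most of that sum, at 1472 to 2189 CPM, with Cd79a at 369 to 474, Vpreb3 at 59.9 to 77.6 and Ms4a1 at 5.87 to 7.90. The only T cell marker with a paired name, Lck, was at 24.8 to 35.3 CPM of RNA. These sums cover unlike numbers of markers. In bulk samples, fewer cells of a type and less RNA per cell cannot be told apart.

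Counts were divided by median-of-ratios size factors over the 6 libraries together, and values below are these normalized counts, not divided by transcript length. Log2 TE is the fitted log2 ratio of footprints to RNA on that scale, so 0 is the centre of these libraries and no absolute rate. It was tested in edgeR by quasi-likelihood, and p-values were adjusted by the Benjamini-Hochberg method over all 7713 transcripts. Log2 TE differed from 0 at an adjusted p under 0.05 for 4684 transcripts, or 60.7%. High TE (adjusted p under 0.05 and log2 TE above 1, more than 2-fold) was called for 1482 transcripts, 19.2%, and low TE (below -1) for 1117, 14.5%. Without the library labelled RPF replicate 3, 7940 transcripts were tested, and 68.1% differed, 19.3% were high and 14.9% were low.

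The balance of high and low calls followed the scaling. TMM, another scaling, gave 1092 high and 1400 low, and library totals gave 3464 high and 471 low. The scaling moved all values together, with a median log2 TE over all transcripts tested of 0.18 by median of ratios, 0.010 by TMM and 0.87 by library totals. Gene lists are therefore read against the median of all transcripts, 0.18 (also 0.18 without the library labelled RPF replicate 3). The lists hold only transcripts with a gene name, whose median rose from 0.096 to 0.24 without that library. A list median that is higher without it is therefore not by itself particular to that list.

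TE spanned a wide range. From the 5th to the 95th percentile of transcripts, log2 TE ran from -1.85 to 1.68, an 11.6-fold range. The extremes lay much farther out at the low end, at -9.69, than at the high end, at 3.95. Between the fits with and without the library labelled RPF replicate 3, the high calls shared 1266 transcripts (85.4% of those from all 6 libraries and 82.6% of those without it). The low calls shared 973 (87.1% and 82.2%). 0 transcripts were high in one fit and low in the other. Log2 TE in both fits had a Pearson's r of 0.974 across 7669 transcripts, which share 5 of the 6 libraries.

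Footprints were spread more evenly over transcripts than RNA. The 100 transcripts with most counts held 31.0%, 29.9% and 30.1% of all counts in RNA replicates 1, 2 and 3. In the footprint libraries, in the same order, the top 100 held 10.3%, 10.7% and 9.71%. The single top transcript took 2.78% to 3.55% of the RNA counts and 0.246% to 0.261% of the footprints. Across the 7713 transcripts, log2 footprints had a slope of 0.64 on log2 RNA (0.67 without the library labelled RPF replicate 3), with Pearson's r of 0.746. TE accordingly ran down the RNA range. Split into 10 equal groups by normalized RNA count, the transcripts had a median log2 TE of 1.12 in the lowest group, 0.19 in the fifth and -0.75 in the highest. In the highest group 41.2% were low and 1.42% high, while in the lowest group 54.3% were high and 0% low. RNA is the denominator of TE, so its error enters both measures, and a transcript with little RNA passed the filter only with enough footprints.

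**Figure D1:**
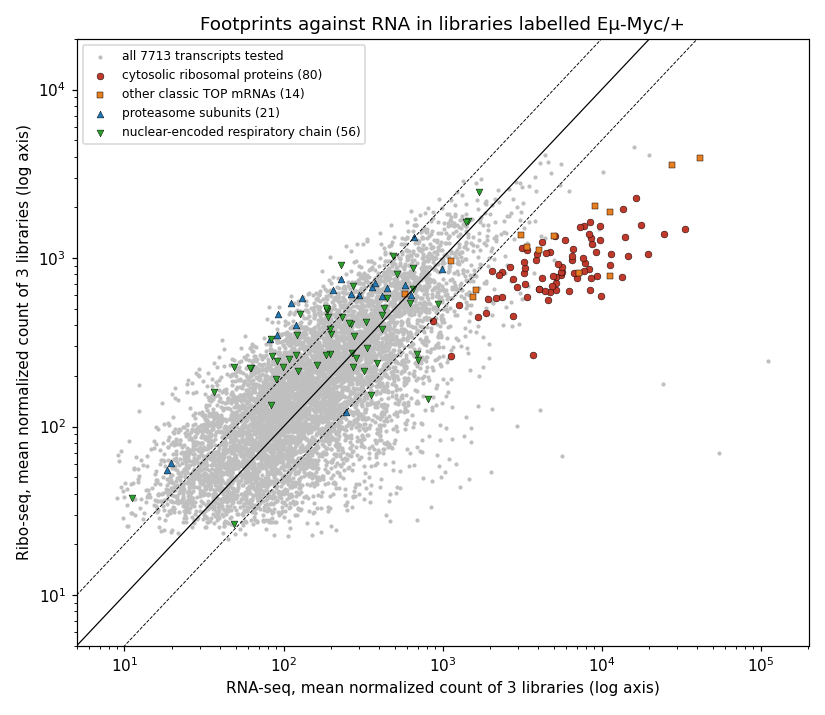
Mean normalized footprint count against mean normalized RNA count for the 7713 transcripts tested (grey, both axes logarithmic, means of 3 libraries), with 4 gene lists in color. The solid line marks equal values and the dashed lines 2-fold departures, and all 80 ribosomal protein transcripts sit to the right of the lower dashed line.

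Cytosolic ribosomal proteins had few footprints for their RNA. All 80 cytosolic ribosomal protein transcripts tested were low, beside 14.5% of all transcripts tested, and 0 were high. Their median log2 TE was -2.66, a ratio of 0.158, beside 0.18 over all transcripts. In each of the 80, the 3 footprint values lay below the 3 RNA values. Separation of the assays, in either direction, was common in other lists too, in 18 of 21 proteasome and 32 of 52 histone transcripts. Its share over all transcripts is not given here. Together they took 16.97%, 14.9% and 15.0% of the RNA counts and 3.83%, 3.93% and 2.50% of the footprints in replicates 1, 2 and 3. Both subunits lay there, with a median of -2.72 for 48 transcripts of the large subunit and -2.64 for 32 of the small one. Without the library labelled RPF replicate 3 the median of all 80 was -2.44, and 79 were low. All 80 were in the top decile by RNA count, where the median log2 TE was -0.75. All 80 had their names through a list the study chose on these libraries, so their low TE is no independent evidence of a direction.

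Rpsa, a protein of the small subunit that has also been described as a laminin receptor, was the lowest of the 80. Its RNA stood at 36913, 32740.3 and 30674 normalized counts in replicates 1, 2 and 3 and its footprints at 1764, 1868 and 852. The footprint values all lay far below the RNA values, and the library labelled RPF replicate 3 was the lowest of them. Log2 TE was -4.49 ± 0.38 (SE, adjusted p = 2.40e-05, edgeR), 22.5-fold fewer footprints than RNA on this scale, and -4.19 without that library. Rplp0, of the stalk that recruits elongation factors, had 25545, 24309.6 and 24608 in RNA and 1593, 1641 and 910.4 in footprints (log2 TE -4.17 ± 0.31, adjusted p = 1.46e-05, edgeR, -3.93 without that library). Rps6, the substrate of the S6 kinases, had 14423, 13171 and 14308 in RNA and 1494, 1555 and 963 in footprints. The groups did not overlap for either gene, and log2 TE of Rps6 was -3.39 ± 0.26 (adjusted p = 1.49e-05, edgeR) and -3.18 without the library labelled RPF replicate 3. The highest of the 80 was Rpl36al, with 927, 839.9 and 831 in RNA and 457, 543 and 273 in footprints and a log2 TE of -1.04 ± 0.23 (adjusted p = 0.00401, edgeR). It was still below 0 in all 3 footprint libraries, and at -0.78 it was the only one of the 80 outside the limit without the library labelled RPF replicate 3. Ribosomal protein genes have many near-identical pseudogene copies, so their RNA counts are uncertain where reads could be split among copies.

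Other mRNAs of the classic TOP class stood close to the ribosomal proteins. Of 14 tested, 12 were low (85.7%, beside 14.5% of all transcripts) and 0 high (beside 19.2%). Their median log2 TE was -1.88 (-1.75 without the library labelled RPF replicate 3). Tpt1, the translationally controlled tumor protein, had 11528, 10748 and 11391 in RNA and 778, 943 and 644 in footprints (log2 TE -3.83 ± 0.23, adjusted p = 7.02e-06, edgeR, -3.69 without that library). Eef1a1, which carries aminoacyl-tRNA to the ribosome, had 43770.4, 39372 and 41971 in RNA and 4402, 4705 and 2745 in footprints. Eef2, the translocation factor, had 30123, 26121 and 26785 and 3952, 4309 and 2515. Both elongation factors had far fewer footprints than RNA in every library, 10.6-fold and 7.71-fold on this scale, at log2 TE of -3.40 ± 0.32 and -2.95 ± 0.30 (adjusted p = 4.14e-05 and 5.43e-05, edgeR), and -3.18 and -2.73 without that library. Pabpc1, the poly(A)-binding protein whose 5′ end is printed above, had 12060.2, 11056 and 10878 in RNA and 1924, 2211 and 1511 in footprints (log2 TE -2.59 ± 0.22, adjusted p = 2.57e-05, edgeR, -2.44 without that library). Rack1, a scaffold on the small subunit counted here among the ribosomal proteins, had 9115, 8299.9 and 8065 and 1775, 1840.2 and 1285 (log2 TE -2.38 ± 0.21, adjusted p = 3.06e-05, edgeR, -2.22 without that library). Neither gene's footprint values reached its RNA values in any library.

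The exceptions of the class were Eif3e at -0.23 (-0.25 without that library) and Eef1d, the exchange factor subunit, at 0.071 ± 0.16 (adjusted p = 0.711, edgeR, 0.17 without that library). Eef1d had 644, 568 and 524 in RNA and 589, 705 and 536 in footprints, values that overlapped. Npm1, a nucleolar chaperone of ribosome assembly, was at -2.16, and Nap1l1, a histone chaperone, at -1.20 (-1.96 and -1.01 without that library).

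Translation initiation factors were mixed. Of 21 tested, 4 were low (19%) and 3 high (14.3%), near the 14.5% and 19.2% of all transcripts, with a median log2 TE of -0.23 (-0.14, 4 low and 1 high, without that library). The low ones were Eif4ebp2, Eif4b, Eif3f and Eif3h. Eif4ebp2, an inhibitor of cap-dependent initiation that mTORC1 phosphorylates, was the lowest, with 1096, 958 and 943 in RNA and 135, 119 and 159 in footprints. Its footprint values were alike in the 3 libraries and its log2 TE of -2.84 ± 0.16 (adjusted p = 5.70e-06, edgeR) became -2.96 without the library labelled RPF replicate 3. The high ones were Eif2b2, of the guanine nucleotide exchange factor for eIF2, and Eif2a and Eif2s3y. Eif2b2 had 91.7, 82.9 and 84.4 in RNA and 213, 226 and 215 in footprints (log2 TE 1.34 ± 0.15, adjusted p = 8.65e-05, edgeR, 1.36 without that library). Without the library labelled RPF replicate 3 Eif2b2 was the only high one of the list, with Eif2a at 0.82 and Eif2s3y at 0.84. The 9 subunits of eIF3 tested had a median of -0.23.

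Of 5 genes of the mTORC1 pathway tested, 1 was high and 1 low (20% each, beside 19.2% and 14.5% of all transcripts). Lamtor4, a subunit of the lysosomal Ragulator anchor, was high at 1.27 ± 0.25 (adjusted p = 0.00195, edgeR, 1.08 without that library). Eif4ebp2 was low, and the other 3 were within the limits. Mtor, the kinase, had 633, 578 and 728 in RNA and 515, 537 and 451 in footprints. The footprint values lay below the RNA values without overlap, but log2 TE of -0.37 ± 0.15 did not pass the threshold (adjusted p = 0.0527, edgeR). Without the library labelled RPF replicate 3 it passed, at -0.28 (adjusted p = 0.0381, edgeR).

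At the other end stood the proteasome, which degrades ubiquitin-tagged proteins. Of 21 transcripts tested, 12 were high, beside 19.2% of all transcripts, and 1 was low. The median log2 TE was 1.19, or 1.15 with 14 high and 0 low without the library labelled RPF replicate 3. Counted by gene name, 11 of 20 were high. By role, the alpha and beta subunits of the catalytic core had a median of 1.68 (6 of 10 high), those of the 19S cap 1.10 (4 of 6, of which 2 are transcripts that share the name Psmd10) and activators and assembly chaperones -0.068 (2 of 5). These subgroups were drawn after the list was seen. Psmb5, the core subunit with chymotrypsin-like activity, had 91.7, 102 and 82.2 in RNA and 449, 499.8 and 446 in footprints. Every footprint value was above every RNA value, by a similar amount in the 3 libraries, for a log2 TE of 2.33 ± 0.15 (adjusted p = 8.18e-06, edgeR) and 2.37 without the library labelled RPF replicate 3. Psmb2 and Psma1, also of the core, were at 2.28 and 2.16 (2.41 and 2.21 without that library). Psmb8, a subunit of the immunoproteasome, was at 0.23 and did not pass the threshold (0.48 without that library). The low member was Psmg4, an assembly chaperone, with 245, 265 and 228 in RNA and 159, 139 and 68.7 in footprints (log2 TE -1.07 ± 0.27, adjusted p = 0.00806, edgeR), and at -0.72 it was within the limit without that library.

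The nuclear-encoded respiratory chain lay mostly above the centre, with 13 of 56 transcripts below 0. Of the 56, 21 were high (37.5%, beside 19.2% of all transcripts) and 4 low (7.14%, beside 14.5%), with a median log2 TE of 0.62 (0.84, 24 high and 3 low of 55, without the library labelled RPF replicate 3). The 56 hold 54 gene names, of which 20 were high. Complex I, which oxidizes NADH, had a median of 0.67 with 10 of 23 high. Complex III had 1.00 with 4 of 8 high. Cytochrome c oxidase (complex IV) and ATP synthase stood lower, at 0.30 and 0.33, and held all 4 low members. Ndufa7 of complex I had 61.9, 51.0 and 32.9 in RNA and 215, 234 and 229 in footprints, with no overlap (log2 TE 2.21 ± 0.23, adjusted p = 6.38e-05, edgeR, 2.22 without that library). Cox7a2l, which joins respiratory complexes into supercomplexes, was the lowest, with 814, 792 and 822 in RNA and 184, 143 and 111 in footprints (log2 TE -2.50 ± 0.19, adjusted p = 1.50e-05, edgeR, -2.29 without that library). The spread from Cox7a2l to Ndufa7 was thus wider than the distance of the group's median from that of all transcripts, which was 0.44.

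Mitochondrial ribosomal proteins, made in the cytosol for the ribosomes of mitochondria, stood elsewhere than the cytosolic ones. Of 32 transcripts tested 9 were high (28.1%, beside 19.2% of all) and 0 low (beside 14.5%), and 10 and 0 without that library. The median was 0.54 (0.64 without it), 0.55 for the large and 0.52 for the small subunit. Mrpl14 had 23.1, 20.2 and 30.7 in RNA and 107, 113 and 87.8 in footprints and was the highest at 2.04 ± 0.24 (adjusted p = 1.20e-04, edgeR, 2.17 without that library). Mrpl30 was the lowest at -0.56 ± 0.14 (adjusted p = 0.00765, edgeR, -0.47 without that library). Of the 32, 0 were in the top decile by RNA count, where all 80 cytosolic ones were.

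**Figure D2:**
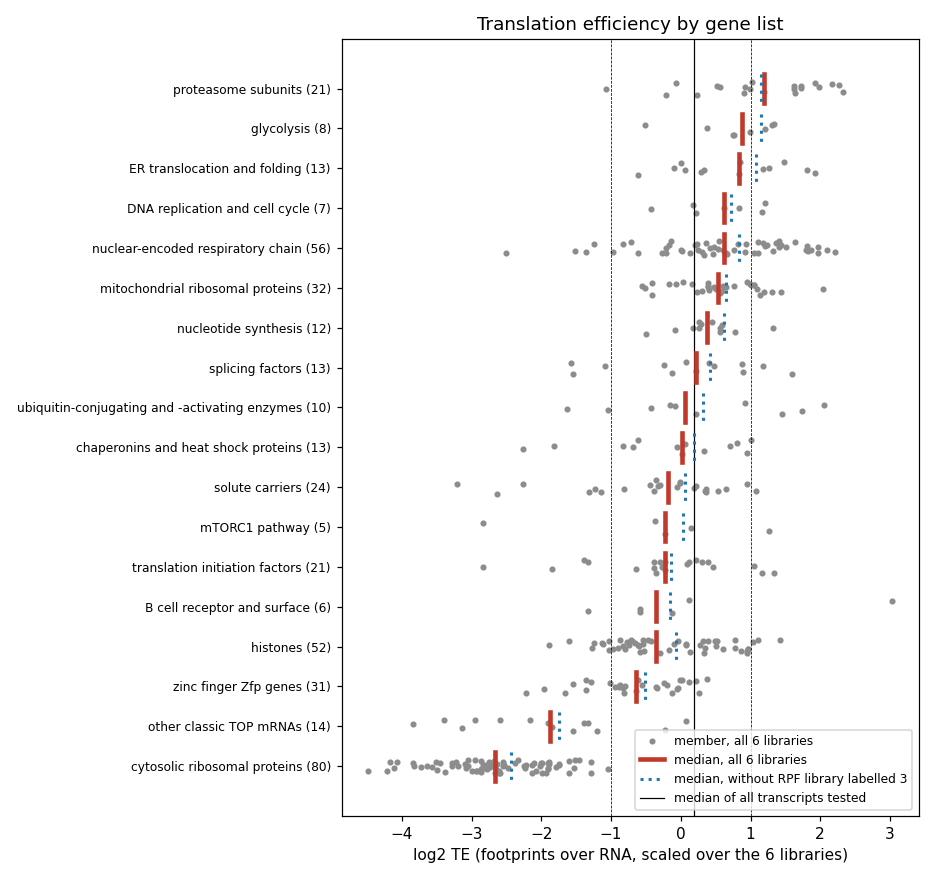
Log2 TE of each member (grey points) of the 18 gene lists with at least 5 transcripts tested, the number tested in parentheses. Red bars mark list medians from all 6 libraries, blue dotted bars those without the RPF library labelled 3, the solid line the median of all transcripts tested (0.18) and the dashed lines the limits of high and low TE, and only the cytosolic ribosomal proteins and other classic TOP mRNAs have medians below the lower limit.

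Secretory and metabolic lists also had medians above that of all transcripts, of which 19.2% were high and 14.5% low. Of 13 transcripts for translocation and folding in the endoplasmic reticulum, 5 were high (38.5%) and 0 low, with a median of 0.84 (1.07 and 7 high without that library). Spcs1, of the signal peptidase, led them with 52.2, 72.8 and 65.8 in RNA and 258, 263 and 208 in footprints (log2 TE 1.92 ± 0.19, adjusted p = 5.06e-05, edgeR, 2.04 without that library). Srp14, of the signal recognition particle, was the lowest at -0.62 ± 0.19 (adjusted p = 0.0182, edgeR, -0.41 without that library). Of 8 glycolytic enzymes 3 were high (37.5%) and 0 low, with a median of 0.88 (1.15 and 6 high without that library). Tpi1, the triose phosphate isomerase, had 307, 313 and 306 in RNA and 950.4, 910.0 and 495 in footprints, where the library labelled RPF replicate 3 was the lowest and still above the RNA values. Its log2 TE was 1.34 ± 0.23 (adjusted p = 0.00110, edgeR, 1.60 without that library). Gpi1, the glucose-6-phosphate isomerase, was on the other side at -0.51 ± 0.14 (adjusted p = 0.0135, edgeR, -0.46 without that library).

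Of 12 nucleotide synthesis transcripts, the group to which Prps2 belongs, 1 was high (8.33%, below the 19.2% of all transcripts) and 0 low, with a median of 0.37 (0.62 and 2 high without that library). The high one was Atic, which catalyzes the last steps of purine synthesis, with 577, 436 and 413 in RNA and 1232, 1430.2 and 917 in footprints (log2 TE 1.32 ± 0.21, adjusted p = 5.67e-04, edgeR, 1.50 without that library). Impdh2, which commits the purine pathway to guanine nucleotides, had 2028, 1997 and 1693 in RNA and 1367, 1626 and 1059 in footprints and a log2 TE of -0.50 ± 0.19 (adjusted p = 0.0440, edgeR, -0.34 without that library). Prps2 itself did not pass the low-count filter with all 6 libraries. Without the library labelled RPF replicate 3 its log2 TE was 0.65 (adjusted p = 0.000157, edgeR). Of 7 transcripts of DNA replication and the cell cycle 2 were high (28.6%) and 0 low, and 3 were high without that library. The 2 were Pcna, the replication clamp, at 1.16 (1.44 without that library) and Mcm4, of the replicative helicase, at 1.21 ± 0.17 (adjusted p = 3.64e-04, edgeR, 1.37 without that library). Cdk6, the G1 kinase, was at -0.42 ± 0.17 and did not pass (adjusted p = 0.0559, edgeR, -0.27 without that library).

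The Zfp zinc finger genes and the histones had medians below that of all transcripts. Of 31 Zfp genes, which encode DNA-binding factors, 8 were low (25.8%, beside 14.5% of all transcripts) and 0 high (beside 19.2%), with a median of -0.65 (-0.52 without the library labelled RPF replicate 3). Zfp771 was the highest at 0.38 ± 0.34 (adjusted p = 0.363, edgeR, 0.79 without that library), which did not pass. Zfp236 was the lowest, with 371, 434 and 413 in RNA and 98.7, 83.6 and 81.8 in footprints (log2 TE -2.22 ± 0.16, adjusted p = 1.09e-05, edgeR, -2.15 without that library). Of 52 histone transcripts, 8 were low (15.4%, about the share of all transcripts) and 3 high (5.77%), with a median of -0.36. Without that library 2 were low (3.85%) and 10 high (19.2%, about the 19.3% of all transcripts then), with a median of -0.069, so the calls of this list turned on 1 library. Within the list the H2A genes had a median of -0.77 and the H3 genes 0.55. Histone genes are near-identical copies, and counts of single members, Hist1h2bf at -1.89 and Hist1h2bl at 1.43 among them, are uncertain.

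The remaining lists held members at both ends, and their shares called are small counts beside 19.2% high and 14.5% low of all transcripts. Of 13 chaperonins and heat shock proteins, the cytosolic chaperones Hsp90ab1 and Hspa8 were low at -2.27 and -1.82 (-2.07 and -1.52 without that library), while Hspa13 was high at 1.01 ± 0.29 (adjusted p = 0.0131, edgeR, 1.35 without that library). Of 13 splicing factors 3 were low (23.1%) and 2 high (15.4%), and 3 and 4 without that library. Snrpf, of the Sm ring, had 1061, 917 and 814 in RNA and 333, 348 and 262 in footprints (log2 TE -1.58 ± 0.17, adjusted p = 7.94e-05, edgeR, -1.44 without that library). Snrpb2, of the U2 particle and with a TOP start, had 151, 106 and 93.0 and 360.2, 315 and 374 (log2 TE 1.59 ± 0.20, adjusted p = 1.65e-04, edgeR, 1.56 without that library). Of 10 ubiquitin-activating and -conjugating enzymes 3 were high and 2 low (4 and 1 without that library), from Ube2t at 2.06 ± 0.25 (adjusted p = 1.35e-04, edgeR, 2.05 without that library) to Ube2q2 at -1.64 ± 0.16 (adjusted p = 4.93e-05, edgeR, -1.52 without that library). Of 24 solute carriers 6 were low (25.0%) and 1 high (4.17%), and 5 and 1 without that library. The high one was the nucleoside transporter Slc29a1 at 1.08 ± 0.14 (adjusted p = 2.40e-04, edgeR, 1.04 without that library). Slc35a4, whose mRNA is known for an upstream reading frame, was the lowest with 347, 322 and 297 in RNA and 47.7, 37.6 and 26.3 in footprints (log2 TE -3.21 ± 0.22, adjusted p = 1.03e-05, edgeR, -2.91 without that library). Low footprints were also read for Ftl1, the ferritin light chain, with 691, 654 and 671 in RNA and 169.6, 181 and 145 in footprints (log2 TE -2.04 ± 0.14, adjusted p = 1.09e-05, edgeR, -1.93 without that library). Odc1, the first enzyme of polyamine synthesis, had 716, 862 and 711 and 420.2, 442 and 461 (log2 TE -0.79 ± 0.14, adjusted p = 0.00121, edgeR, -0.82 without that library).

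Genes of the B cell surface varied with the library. Of 6 tested, 1 was high and 1 low (16.7% each, near the 19.2% and 14.5% of all transcripts). Without the library labelled RPF replicate 3, 1 was high and 0 low. Cd79a, a signaling chain of the B cell receptor, had 1655, 1392 and 1269 in RNA and 1591, 1563 and 834 in footprints, so that the footprint value of the library labelled RPF replicate 3 was the lowest and the groups overlapped. Its log2 TE was -0.12 ± 0.25 (adjusted p = 0.694, edgeR), and 0.15 without that library. Cd74, the invariant chain of MHC class II, had 7638, 6142 and 5062 in RNA and 3266, 3217 and 1045 in footprints (log2 TE -1.33 ± 0.40, adjusted p = 0.0167, edgeR), and -0.94 without that library. Ms4a1, which encodes CD20, went the other way and is described next.

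Among named transcripts the 10 with the highest TE held membrane and secretory-pathway proteins, mitochondrial proteins and others. Lamp2, Fmc1, Nup43, Cdkn2a, Ms4a1, Vcam1 and Cd52 were in the lowest of the 10 RNA groups, where 54.3% of all transcripts were high and 0% low. Prdx4 and Atp6ap2 were in the second group and Hadhb in the fourth. High TE of these transcripts thus goes with little RNA. Lamp2, a lysosomal membrane protein (chrX:38399647-38456460, GRCm38.p6), had 14.2, 20.2 and 25.7 in RNA and 122, 140.1 and 206 in footprints. Its log2 TE was 2.98 ± 0.29 (adjusted p = 4.68e-05, edgeR, 2.71 without the library labelled RPF replicate 3). Its footprints were above its RNA without overlap, which the rule for choosing these 10 required of each. Fmc1, an assembly factor of mitochondrial ATP synthase (chr6:38534861-38539449), had 25.4, 23.4 and 25.0 in RNA and 155, 157 and 170.2 in footprints (log2 TE 2.71 ± 0.18, adjusted p = 9.61e-06, edgeR, 2.68 without that library). Prdx4, a peroxiredoxin of the endoplasmic reticulum (chrX:155323918-155342272), had 55.9, 60.6 and 55.8 and 328, 362 and 346 (log2 TE 2.58 ± 0.15, adjusted p = 5.37e-06, edgeR, 2.59 without that library). For Fmc1 and Prdx4 the libraries within an assay were nearly alike. Nup43 of the nuclear pore, Atp6ap2, an accessory protein of the vacuolar proton pump, and Hadhb of mitochondrial fatty acid oxidation were at 2.67, 2.45 and 2.44, and at 2.46, 2.45 and 2.44 without that library.

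The other 4 of the 10 rested in part on the library labelled RPF replicate 3. Cdkn2a, which encodes the tumor suppressors Ink4a and Arf (chr4:89274473-89294619), had 16.4, 8.51 and 12.2 in RNA and 43.3, 73.9 and 410.1 in footprints. The footprint values were above the RNA values, as the rule of choice required, but the one labelled replicate 3 was far above the others. Log2 TE of 3.95 ± 0.79 (adjusted p = 0.00228, edgeR) became 2.28 without that library. Ms4a1 had 26.9, 20.7 and 27.2 in RNA and 83.6, 51.9 and 434 in footprints (log2 TE 3.03 ± 0.69, adjusted p = 0.00456, edgeR), and 1.48 without that library. Vcam1, an adhesion molecule, and Cd52, a surface glycoprotein of lymphocytes, went from 2.69 to 1.24 and from 2.58 to 1.83.

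At the low end, the named transcripts included those of Tpt1 and the ribosomal proteins Rpsa, Rpl13a, Rplp0, Rpl26 and Rps23, and 3 that were not of that class. Lars2, the mitochondrial leucyl-tRNA synthetase (chr9:123366927-123462675), had 24283, 19505 and 29251 in RNA and 186, 138 and 211 in footprints, a 135-fold difference on this scale (log2 TE -7.08 ± 0.34, adjusted p = 3.04e-06, edgeR). Wdr89, a WD repeat protein (chr12:75630594-75669537), had 6021, 5347 and 5537 in RNA and 40.9, 70.2 and 90.0 in footprints (log2 TE -6.33 ± 0.30, adjusted p = 2.95e-06, edgeR). BC005537 (chr13:24801657-24812899) had 688, 665 and 707 in RNA and 28.5, 22.4 and 33.2 in footprints (log2 TE -4.57 ± 0.18, adjusted p = 2.34e-06, edgeR). All 3 stayed as low without the library labelled RPF replicate 3, at -7.21, -6.65 and -4.76. The study's methods state removal of ribosomal and transfer RNA reads for Ribo-seq and not for RNA-seq. Whether such reads entered the RNA counts of these 3 was not tested, so their low TE is uncertain.

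**Figure D3:**
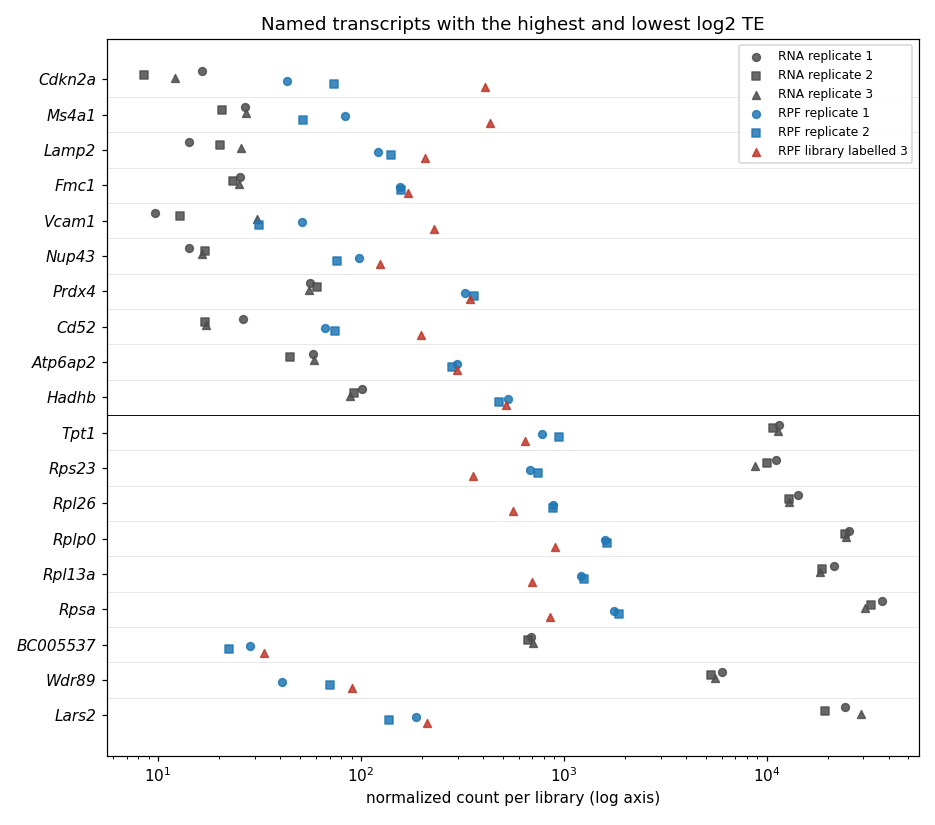
Normalized count in each of the 6 libraries (logarithmic axis) for the 10 highest and 9 of the 10 lowest named transcripts by log2 TE, RNA in grey, RPF replicates 1 and 2 in blue and the RPF library labelled 3 in red. For Cdkn2a and Ms4a1 the red point stands far to the right of the blue ones (410.1 beside 43.3 and 73.9 for Cdkn2a), whereas for Fmc1, Prdx4 and Hadhb the 3 footprint points nearly coincide.

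Only 2117 of the 7713 transcripts tested, 27.4%, had a gene name paired with them in the sources used here, and 1695 of these came from a list of transcripts whose TE the study called raised in Eμ-Myc/+ Prps2null over Eμ-Myc/+ lymphomas. That list was chosen on these libraries, whose TE is the denominator of the choice, so the names are not independent of low TE here. Beside the 80 ribosomal protein transcripts, 13 of the 14 other TOP transcripts and 26 of the 31 Zfp genes were named through it. The named transcripts had a median log2 TE of 0.096 (0.24 without the library labelled RPF replicate 3), and those without a name 0.22. Of the named, 16.2% were high and 18.8% low. The gene lists thus describe the named transcripts and not a sample of all. Among the unnamed, ENSMUST00000077886 had 11.2, 12.2 and 13.6 in RNA and 132, 119.9 and 118 in footprints (log2 TE 3.31 ± 0.21, adjusted p = 8.18e-06, edgeR, 3.36 without that library). ENSMUST00000179797 had 50235, 51088 and 63982 in RNA and 98.8, 66.7 and 45.1 in footprints, the lowest log2 TE of all, -9.69 ± 0.48 (adjusted p = 3.04e-06, edgeR, -9.37 without that library).

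A further 3212 transcripts had enough RNA and too few footprints to be tested, of which 1371 had 0 footprints in all 3 libraries, and 734 had enough footprints and too little RNA. The named one with most RNA was Tmem38b, a cation channel of intracellular membranes, with 21313, 14438 and 16278 in RNA and 2.83, 0 and 12.04 in footprints. Whether ribosomal RNA reads entered its RNA counts was likewise not tested. For the next 4 the footprint libraries differed among themselves. Bahcc1 had 155, 189 and 2.37 in footprints beside 782, 784 and 762 in RNA. Nrp2, a semaphorin receptor, had 6.13, 14.3 and 405 beside 486, 616 and 598. The library labelled RPF replicate 3 was the lowest for Bahcc1, Cacna1e and Kcnk1 and the highest for Nrp2, and for Nrp2 RPF replicates 1 and 2 were the low ones. These 4 cannot be called free of footprints.

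The library labelled RPF replicate 3 was more than 2-fold above the mean of RPF replicates 1 and 2 for 324 of the 7713 transcripts and more than 2-fold below it for 453, while RPF replicates 1 and 2 were more than 2-fold apart for 57. The common dispersion of the fit was 0.0353 with it and 0.00889 without it. The named transcripts farthest from the other libraries were chosen after their values were seen. Above them stood Ahnak, a large scaffold protein, with 551, 487 and 3709 in footprints beside 669.8, 589.5 and 796 in RNA. Reln, a secreted matrix protein, had 228, 322 and 2498 beside 169, 186 and 230.3. Bank1, a B cell scaffold, had 75.4, 53.7 and 557 beside 53.0, 52.1 and 21.5. In none of the 3 genes was RNA replicate 3 far above the other RNA libraries, and log2 TE moved from 1.22, 2.41 and 2.52 to -0.38, 0.51 and 0.60 without that library. Below them stood Bcl2l1, which encodes the survival factor Bcl-xL, with 455, 376 and 29.9 beside 856, 856 and 818. Rag1, of the V(D)J recombinase, had 455, 374 and 40.4 beside 407, 313 and 179. RNA replicate 3 was also the lowest RNA library for Rag1. Spint2, a protease inhibitor, had 408, 486 and 24.4 beside 199.9, 203 and 255. Without that library log2 TE was -1.01, 0.48 and 1.04 for these, in place of -1.61, -0.11 and 0.42. Of the 34 transcripts whose log2 TE moved by more than 1 between the fits, all 34 were lower without that library. A mean of 3 values rises little when 1 low value is left out, and can fall far when a high one is. The shared direction of the 34 therefore says little about that library.

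**Figure D4:**
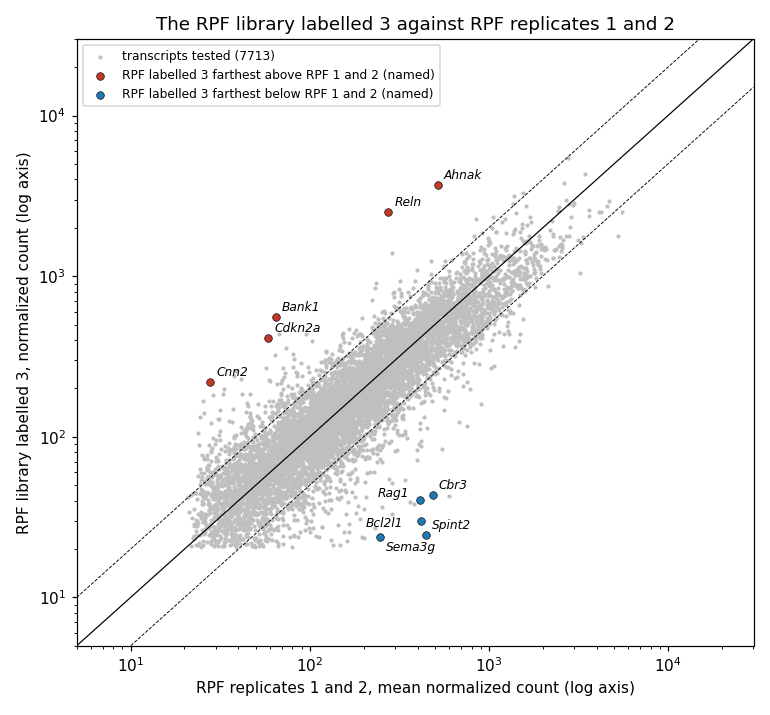
Normalized footprint count of the RPF library labelled 3 against the mean of RPF replicates 1 and 2 for the 7713 transcripts tested (both axes logarithmic), with the 5 named transcripts farthest above and the 5 farthest below marked. The solid line marks equal values and the dashed lines 2-fold departures, beyond which lie 324 transcripts above and 453 below.

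The 5′ UTR sequences were set against TE for the 1436 transcripts tested that had one, of 2 to 400 bases. They come from the study's list of raised TE and are no sample of all transcripts, so these values are descriptions. The 49 with a TOP start had a median log2 TE of 0.039 and the 1387 without one 0.18. The medians differed by gene class and little by the letters. The 7 ribosomal protein transcripts with a TOP start (Rpl4, Rpl32, Rps21 and Rack1 of those printed above among them) had a median of -2.38, and the 40 whose annotated 5′ end had none -2.66. Outside the ribosomal proteins, the 42 with a TOP start had 0.21 and the 1347 without one 0.23. Of those 42, 5 were high (11.9%, beside 17.7% of the 1347), Snrpb2 at 1.59 and Mrpl4 at 1.19 among them. Low TE was called for 10 (23.8%, beside 12.5% of the 1347), Pabpc1 at -2.59 and Slc25a37 at -2.26 among them. The share called low was thus higher with a TOP start, though the medians were close. A 5′ end without these letters says only that they are not at that annotated base. Without the library labelled RPF replicate 3 these 4 medians, listed as above, were -2.22, -2.44, 0.37 and 0.35, so that outside the ribosomal proteins the order of the pair turned.

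Upstream ATG triplets in any frame, counted on the mRNA strand, were present in 42.6% of these 5′ UTRs. The 824 transcripts with 0 had a median log2 TE of 0.32, the 319 with 1 had -0.11, the 134 with 2 had 0.049 and the 159 with 3 or more had -0.38. The share of low TE went from 10.4% with 0 to 26.4% with 3 or more, and that of high TE from 20.1% to 8.18%. Length and upstream ATG go together, so the groups were also split by length. In the shortest quartile (up to 84 bases) transcripts without and with an upstream ATG had medians of 0.44 and 0.46. In the second quartile (up to 141) these were 0.30 and -0.081, in the third (up to 247) 0.29 and -0.15, and in the longest -0.10 and -0.19. The median was thus lower with an upstream ATG in 3 of the 4 length quartiles, and without the library labelled RPF replicate 3 in all 4.

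By length alone the medians of the 4 quartiles were 0.44, 0.17, 0.12 and -0.16 from shortest to longest. By GC content only the highest quartile (above 72.0%) differed much, at -0.089 beside 0.24, 0.26 and 0.28. A purine at position -3 from the main start codon, part of the context that favors initiation, was held by 1248 transcripts, with a median of 0.21 beside 0.045 for the 188 with a pyrimidine there. Across the 1436 transcripts Spearman's rho with log2 TE was -0.18 for length, -0.11 for GC content and -0.20 for the number of upstream ATG, all weak. In each of the 3 footprint libraries, set against the mean RNA, the median with 3 or more upstream ATG was below that with 0 and the longest quartile was below the shortest.

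**Figure D5:**
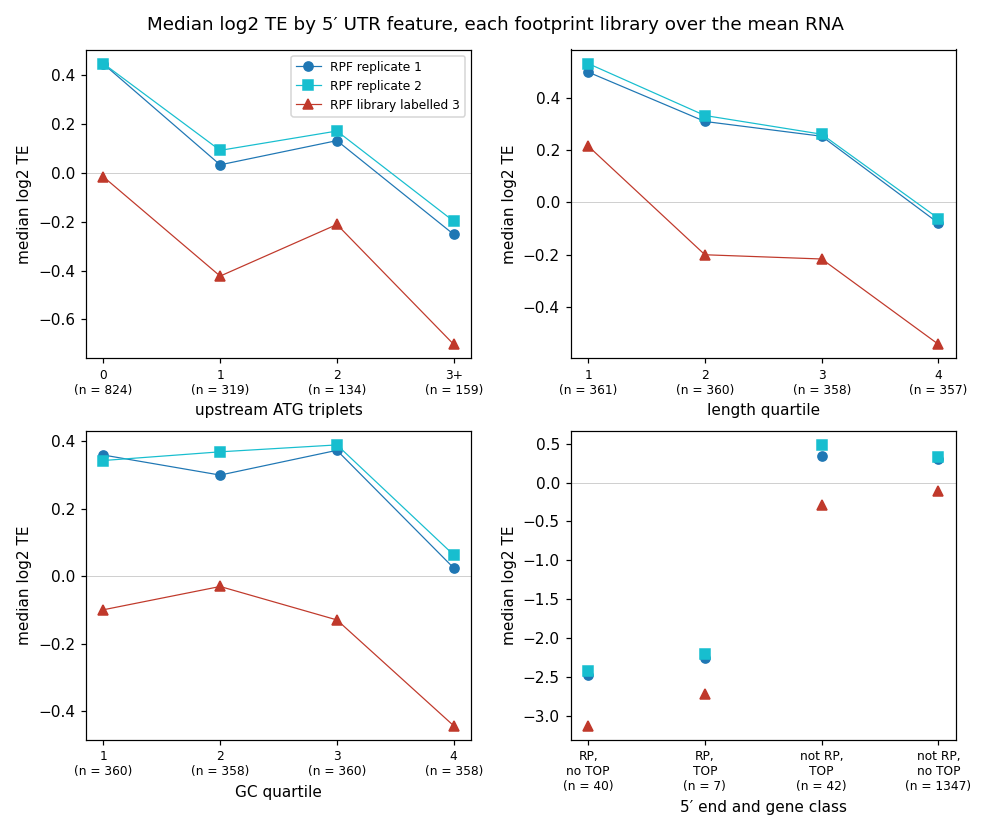
Median log2 TE by number of upstream ATG triplets, quartiles of 5′ UTR length and GC content, and TOP start within and outside the ribosomal proteins (RP), for each footprint library over the mean RNA of 3 libraries, with the number of transcripts under each point. For these transcripts the RPF library labelled 3 (red) lies below the other libraries throughout and follows the same order of length quartiles and of ribosomal against other transcripts. Over all 7713 transcripts tested the medians of RPF 1, 2 and 3 were closer, at 0.16, 0.17 and 0.13.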

How the data were processed

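RNA-seq and Ribo-seq were analyzed for the 3 libraries of each labelled Eμ-Myc/+. Per the labels and the study's methods, Ribo-seq reads had linkers trimmed (cutadapt 2.3), duplicates removed by unique molecular identifiers, and ribosomal and transfer RNA reads removed. The methods state these steps for Ribo-seq, and for RNA-seq only the alignment. Reads of both assays were aligned with Bowtie2 (2.3.5 for Ribo-seq) to 1 isoform per gene, that with the longest coding sequence. Among the named transcripts tested, 15 nevertheless repeated a gene name and were kept. The genome build in the submitters' processing notes is mm10. The RNA-seq values the authors deposited are raw counts per transcript. The Ribo-seq values the authors deposited are expected counts, not all whole, summed from P-site codon counts of 23 to 32 nt footprints after a correction for stalling. That correction and the 1-isoform reference act on TE and could not be undone here.

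Expected counts were rounded and fitted with edgeR 4.0.16 (limma 3.58.1, R 4.3.3; glmQLFit and glmQLFTest, assay as the only term), using median-of-ratios size factors over the 6 libraries and transcripts that passed edgeR's default filter (count minimum 10) in both assays. Adjusted p-values are Benjamini-Hochberg over all transcripts tested, with a threshold of 0.05. The SE was taken as log2 TE divided by the root of F. Per-library log2 TE used a pseudocount of 0.5 and the mean RNA. On simulated counts for this comparison (dispersion 0.05, log2 difference 2, 7816 transcripts tested), all 147 changed transcripts tested were recovered. Alternatives were TMM, library totals, DESeq2 1.42.0, glmTreat, other filters, a replicate block and leaving out libraries.

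Gene names and 5′ UTR sequences came from the study's supplementary tables (names for 2634 transcripts) and gene coordinates from RefSeq on GRCm38.p6, which names the same mouse assembly as mm10. Named were the 10 highest and 10 lowest log2 TE (at least 10 CPM in the assay where they are higher, called with and without the library labelled RPF replicate 3, no overlap between assays), the highest and lowest of each list with at least 5 tested, a fixed set of genes, and 5 with most RNA among those without enough footprints. Other list members and the transcripts where 1 library stands apart were chosen after their values were seen. The members and the 24 lists were chosen with earlier results of these data known. Eμ-Myc/+ Prps2null libraries were left out. Values of some single genes are not reported here.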

Additional observations from a re-analysis of the deposited data

How the results depend on the processing

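The number of transcripts whose log2 TE differed from 0 (4684) stayed within 1.5 times under TMM, library totals, DESeq2, no filter, at least 10 counts in every library and the replicate block, but was 7604 with the filter passed in either assay. High calls (1482) were 3464 by library totals and 614 by a test against the 2-fold limit itself (glmTreat). Low calls (1117) were 471 by library totals, 3021 with no filter, 4021 with the filter in either assay and 658 by glmTreat. The latter filters admit transcripts absent from an assay.

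Leaving out each library in turn gave 3909 to 5404 differing, 1421 to 1650 high and 1083 to 1357 low. Same-numbered RNA and RPF libraries had deviations from their group means that correlated at 0.100, 0.037 and 0.080 across transcripts. Differently numbered ones correlated at -0.076 to 0.023. Deviations from the mean of an assay's own libraries cancel out, so these values are not independent of the same-numbered ones. The same-numbered values were the higher ones, but weak. The study's methods make both kinds of library from the lymphoma lysates. The main fit did not use the numbers as pairs, and the replicate block did. With the replicate block 4552 differed, 1437 were high and 1153 low. Without lymphoma 3 in both assays, 5365, 1508 and 1157, and with the replicate block added there after seeing the data, 5564, 1506 and 1156.

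Over 70 named genes and 15 alternatives with a value for them, 969 results kept direction and side of the threshold, 29 lost the call, 24 gained it and 28 reversed. By library totals, which raise all values, log2 TE became 0.12 for Mrpl30, 0.18 for Impdh2, 0.18 for Gpi1, 0.26 for Cdk6, 0.060 for Srp14, 0.56 for Cd79a, 0.31 for Mtor, 0.55 for Sema3g and 0.56 for Rag1, and by TMM -0.10 for Eef1d. With 1 library left out, Eef1d ranged from -0.015 to 0.17 (-0.0031 without RNA replicate 3), Cd79a from -0.23 to 0.15, Spint2 from -0.11 to 1.04, Sema3g from -0.59 to 0.51 (0.044 without RNA replicate 1), Rag1 from -0.61 to 0.48 (0.18 without RNA replicate 1) and Ahnak from -0.38 to 1.68. Without lymphoma 3, Cd79a was 0.058, Sema3g 0.36, Rag1 0.22 and Ahnak -0.27, and with the replicate block there 0.061, 0.36, 0.21 and -0.27. With the replicate block alone Spint2 was -0.043. The cause was not tested.

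Of 18 list medians, read against that of all transcripts, 13 kept their sign in every alternative. The chaperonin list was 0.013 above without the RPF library labelled 3, and the ubiquitin enzymes 0.14 above. The solute carriers were 0.10 above without lymphoma 3. The filter moved these lists farther. With the filter in either assay, chaperonins were 0.29, ubiquitin enzymes 0.38 and solute carriers 0.15 above. With no filter they were 0.20, 0.29 and 0.14 above. The splicing factors were at -0.052 without RNA replicate 3, and the initiation factors 0.066 above with the filter in either assay. The planned grouping by coding length was not run, since coding lengths were not used here. Footprint libraries 1 and 2, with 1019881 and 1019139 counts, limit the precision at the low end.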

Other observations

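Gene lists with fewer than 5 transcripts tested are given here as values. Of 3 B cell transcription factors, Bach2, a repressor of plasma cell fate, was low with a log2 TE of -1.69 (-1.39 without the library labelled RPF replicate 3), Irf4 was at -0.37 (0.013) and Mef2c at 0.95 (-0.32). Neither Irf4 nor Mef2c passed the threshold. Of the iron list, Tfrc, the transferrin receptor, was at -0.11 and did not pass, beside Ftl1 and Sdhb at -2.04 and 1.32. Of the polyamine list, Srm, the spermidine synthase, passed at 0.81, while Sat1, which acetylates polyamines for export, did not at -0.15. Of 2 aminoacyl-tRNA synthetases, Iars passed at 0.92 and Qars did not at -0.33.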
